A study of Mus musculus with 2 samples.

Results

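Interferon-high microglia of the mouse retina were the cells that combined transcripts of 5 antiviral genes (Ifit1, Ifit2, Ifit3, Isg15 and Rsad2) with transcripts of 5 microglial genes (P2ry12, Tmem119, Siglech, Gpr34 and P2ry13). Members were chosen by these levels: the antiviral genes, called the gate here, had to sum to at least 15 unique molecular identifiers (UMIs, each standing for 1 captured RNA molecule) per 10000 UMIs of the cell, and the microglial genes, called the microglia cut, to at least 10. Of the 10747 barcodes with at least 300 detected genes and at most 10% mitochondrial UMIs, 187 were members, of which 32 were control and 155 light-damaged cells. The gate read the same RNA as the comparisons below, so differences from the other cells are a description of the selected cells and carry no test, and the gate and cut genes are left out of the findings.

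The cells came from male CB6F1 mice carrying a Cx3cr1-YFP reporter, which marks cells that use the promoter of the fractalkine receptor Cx3cr1; the mice were 8 months old. Each group was a pool of the retinas of 5 to 8 mice, from which live YFP-positive cells were sorted into 1 single-cell 3′ RNA library. The control group had no light damage. The protocol given for damage was a night of dark adaptation, pupil dilation with atropine and phenylephrine, 10 klux of LED light for 4 h and 5 days under normal lighting; whether the control mice shared the dark adaptation and dilation is not stated. With 1 pool and 1 library per group, group and library cannot be told apart, the number of mice behind each member is unknown, and no test of either difference is possible. The reporter also marks perivascular macrophages and monocytes, which need not carry the genes of the microglia cut.

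Type I interferons are secreted proteins that act through the receptor pair Ifnar1 and Ifnar2. The receptor activates Jak kinases, which act on factors such as Stat2 and Irf9 that bind a short motif, the interferon-stimulated response element (ISRE), and switch on interferon-stimulated genes (ISGs). ISG products sense foreign nucleic acid, block viral RNA and protein synthesis, attach the ubiquitin-like protein Isg15 to targets, present antigen and feed back on the pathway. Small groups of microglia with such transcripts are known from ageing, injured and degenerating nervous tissue.

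The regions just upstream of 4 of the 5 gate genes are shown because each holds the ISRE letters, searched as GAAA, any 2 bases and GAAA, on both strands. The 4 stretches below are from RefSeq on build GRCm38.p6, each 5′ to 3′ on the gene's own strand, with the matches in capitals. They lie upstream of Ifit1 at chr19:34640760-34640838 (plus strand), Ifit3 at chr19:34583348-34583441 (plus strand), Isg15 at chr4:156200850-156200921 (minus strand) and Rsad2 at chr12:26456538-26456597 (minus strand).
Ifit1: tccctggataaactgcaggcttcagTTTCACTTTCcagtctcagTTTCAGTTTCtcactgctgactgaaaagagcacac
Ifit3: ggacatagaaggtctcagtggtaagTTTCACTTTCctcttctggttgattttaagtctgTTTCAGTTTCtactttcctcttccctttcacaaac
Isg15: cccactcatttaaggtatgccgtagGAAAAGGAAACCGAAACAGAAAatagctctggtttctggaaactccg
Rsad2: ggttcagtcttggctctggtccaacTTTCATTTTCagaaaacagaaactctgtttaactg

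Isg15 carried 3 overlapping matches and Rsad2 a single one. No match lay in the window of the fifth gate gene, Ifit2, which says only that these letters are not in those 300 bases. Among RefSeq promoters from 250 bases before to 50 after a start, 3.99% of 27025 genes held the ISRE letters. Of the 93 ISGs listed for this report, 69 had a promoter in the table, and 35 of them (50.7%) held the letters. None of the 17 homeostatic microglial genes with a promoter there did. A match is a description of the sequence and not evidence of a bound factor.

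A second motif was searched in the same promoters and is shown for 2 genes that held it and recur below. The letters GGG, any 3 bases and TTCC (both strands), a form of the site of the inflammatory factor NF-kB, were in a promoter of 6.31% of all genes and 13.04% of the ISGs with one. Of the 5 gate genes, 1 held them, Ifit2, with a match at chr19:34550444-34550481 (plus strand). Cxcl10, a chemokine that draws T cells, held 1 ISRE match at chr5:92349068-92349127 and 2 NF-kB matches at chr5:92348959-92349073, both on the minus strand. Ifnb1, which encodes the ligand interferon beta, held 1 NF-kB match at chr4:88522876-88522935 (minus strand) and no match of the ISRE letters.
Cxcl10, ISRE: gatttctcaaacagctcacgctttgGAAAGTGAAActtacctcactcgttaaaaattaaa
Cxcl10, NF-kB: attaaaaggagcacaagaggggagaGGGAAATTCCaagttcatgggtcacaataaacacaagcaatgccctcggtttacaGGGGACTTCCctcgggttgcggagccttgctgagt
Ifnb1, NF-kB: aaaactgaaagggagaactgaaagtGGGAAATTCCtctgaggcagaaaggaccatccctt

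Members made up 0.873% of the 3667 control cells passing the microglia cut (exact Clopper-Pearson 95% interval 0.598 to 1.23%) and 2.81% of the 5521 light-damaged cells (2.39 to 3.28%). These intervals cover counting error only. The libraries differed in depth, with a median of 4846 UMIs per barcode in the control and 7351 in the light-damaged matrix and minima of 1227 and 3059. With every cell thinned to 2000 UMIs, which left out 241 shallower control cells and 0 light-damaged cells, the shares were 1.46% and 3.61%, and over 20 draws they ran from 1.20 to 1.55% and from 3.42 to 3.99%. Thinned to 3000 UMIs, which left out 705 control cells, the draws ran from 0.849 to 1.30% and from 2.78 to 3.11%. The share was thus higher in the light-damaged library at own depth and at both fixed depths. Under the microglia cut the gate was passed more often, by 20 of 281 cells in the control (7.12%) and 102 of 1278 after light damage (7.98%), and those cells are not members.

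Depth differed little between members and other cells of the same library. Median UMIs were 5309.5 in control members against 4848 in the other control cells, and 7426 against 7039 in the light-damaged library. Together the members held 157842 UMIs in the control and 1340685 in the light-damaged library, so control values rest on far fewer molecules and have wider intervals. Of 47 barcodes found in both matrices, 2 belonged to members. Scrublet, a doublet caller, marked 0 control and 1 light-damaged barcodes by its own threshold and so did not work here; removing the highest scores instead took 0 of 32 and 8 of 155 members.

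Some of the 8 listed microglial markers outside the cut were widely detected. Olfml3 and Sparc, used as microglial markers in the nervous system, had a UMI in 31 and 25 of 32 control members and in 150 and 149 of 155 light-damaged members. Csf1r, the growth factor receptor that microglia and macrophages both need to survive, was seen in 31 and 154, and Cx3cr1, whose promoter drives the reporter of the sort, in 30 and 143; these 2 genes do not tell microglia from macrophages. Levels of the 8 markers summed to 16640 CPM in control members and 21067 CPM in the other cells. After light damage they summed to 14667 and 17913 CPM. In the control 3 of the 8 were over 1.5-fold lower, and 0 after light damage. Of all genes with at least 20 CPM in the other cells of both libraries, 23.1% and 4.75% were. Sall1, among the 8, lay below the other cells in both libraries, with values below. Markers of perivascular macrophages were also seen in control members, with values below. The 9 markers of plasmacytoid dendritic cells, which are strong interferon producers, summed to 440.9 CPM in control members and 448.6 CPM in the other cells, a ratio of 0.983 (0.764 to 1.25), and to 782.3 and 696.3 CPM after light damage, 1.12 (1.06 to 1.20). Most of these UMIs, 43 of 69 and 824 of 1042, were Lag3, which the other cells also carried at 335.6 and 573.4 CPM. Cox6a2 was at 25.6 against 12.6 CPM in the control, from 4 UMIs. Of the 9 genes 6 and 5 had no UMI in members, Ccr9, Ly6d and Klk1 in both libraries; a count of 0 allows up to 9.38% of control and 1.94% of light-damaged members with a UMI (3 counts of the members), which limits cells with a UMI and not cells using the gene. T, B and neutrophil marker lists summed to 0 UMIs in control members and to 1, 0 and 3 in light-damaged members.

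The interferon label held for most members but not for all. The level of the 93 ISGs outside the gate had a median of 88.8 UMIs per 10000 in control members and 28.1 in the other control cells, and of 160.4 and 51.9 in the light-damaged library. Of the members, 20 of 32 and 112 of 155 lay above the 90th percentile of the other cells of their library. The 11 control and 21 light-damaged members with a UMI of only 1 gate gene had medians of 31.1 and 58.0, close to the other cells. The 12 and 29 members with 2 to 3 gate genes had medians of 143.0 and 118.5, and the 9 and 105 members with 4 to 5 had 200.8 and 174.2. Most members with 1 gate gene, 9 of 11 and 15 of 21, had Isg15 alone. In the plot of single cells these members sit to the right of the gate line at the height of the grey cells.

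**Figure D1:**
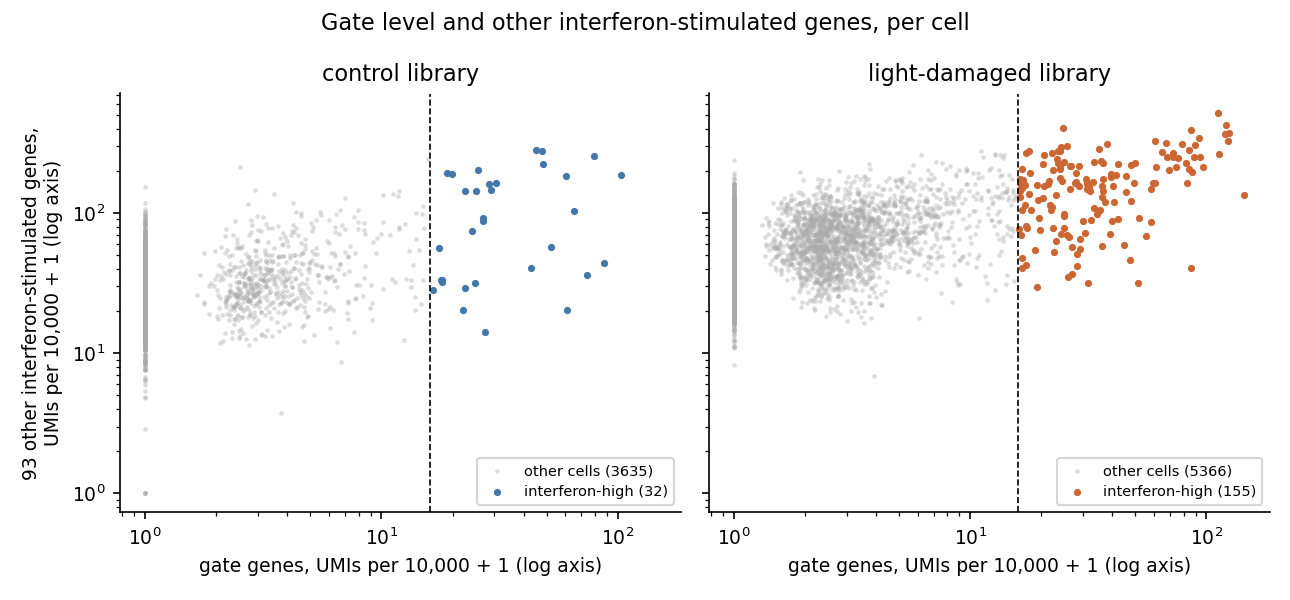
Each point is a cell that passed the microglia cut; the x axis is the summed level of the 5 gate genes and the y axis that of 93 other ISGs, both in UMIs per 10000 plus 1 on log axes, and the dashed line is the gate. The 155 light-damaged members mostly lie above the bulk of the 5366 other cells (median 160.4 against 51.9), while the 32 control members span the whole height of their library.

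The gate cuts through a continuum. In the control library 8 cells lay just below it, from 13 to 15 UMIs per 10000, and 4 just above, from 15 to 17; in the light-damaged library these were 23 and 21 cells. The gate levels of members ran from 15.5 to 102.6 (median 26.2) in the control and from 15.1 to 143.6 (median 29.5) in the light-damaged library. Among the gate genes, Isg15 gave 49.7% of the members' gate UMIs in the control and 37.5% after light damage, Ifit3 25.3% and 24.9%, and Rsad2 5.46% and 17.1%. Among cells passing the cut, 83.7% of the control and 62.3% of the light-damaged ones had no gate UMI. Across members, gate level and the level of the other ISGs had a Spearman rank correlation of 0.34 over 32 control cells and 0.36 over 155 light-damaged cells, all cells of a library sharing its preparation.

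Over all genes, levels were compared as summed UMIs per 1000000 UMIs of the set (CPM), members over other cells passing the cut, and a gene counted as higher or lower when its ratio passed 1.5-fold the same way in both libraries. Of 4941 genes with a mean of at least 20 CPM over the 4 sets, 305 were higher in both (6.17%) and 69 lower in both (1.4%). After light damage alone 8.4% were over 1.5-fold higher and 4.31% lower, and in the control, where 32 cells give coarse ratios, 17.0% and 19.5%. A gene low in the other cells could enter only by being high in members. A second filter, at least 20 CPM in the other cells of both libraries, avoids this and left 4590 genes, of which 3.97% were higher and 1.94% lower in both; by library, 12.2% were higher and 23.1% lower in the control and 5.64% and 4.75% after light damage. The list counts below use the second filter unless a gene count says otherwise.

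Of the 93 ISGs, 34 passed the second filter, and 22 of these were higher in both libraries and 0 lower; their median log2 ratio was 1.47 in the control and 1.29 in the light-damaged library, against -0.14 and -0.06 over all genes passing it. The first filter let in 74 ISGs, with medians of 2.40 and 2.002, but those low in the other cells entered it only through the members and had to be higher, so these medians are not used as support. The same holds for each ISG named below with under 20 CPM in the other cells of a library: its values describe the selected cells. Of the 15 genes with the highest lower-of-both ratio, 10 were ISGs, and none of the 15 passed the second filter. Summed, the 93 ISGs stood at 11170 CPM in control members and 3082 CPM in the other control cells, a ratio of 3.62 (exact conditional Poisson 95% interval 3.45 to 3.80). After light damage they stood at 17129 and 6310 CPM, a ratio of 2.71 (2.68 to 2.75). These list members share the gate genes' known regulation, so they are not independent of how the cells were picked.

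**Figure D2:**
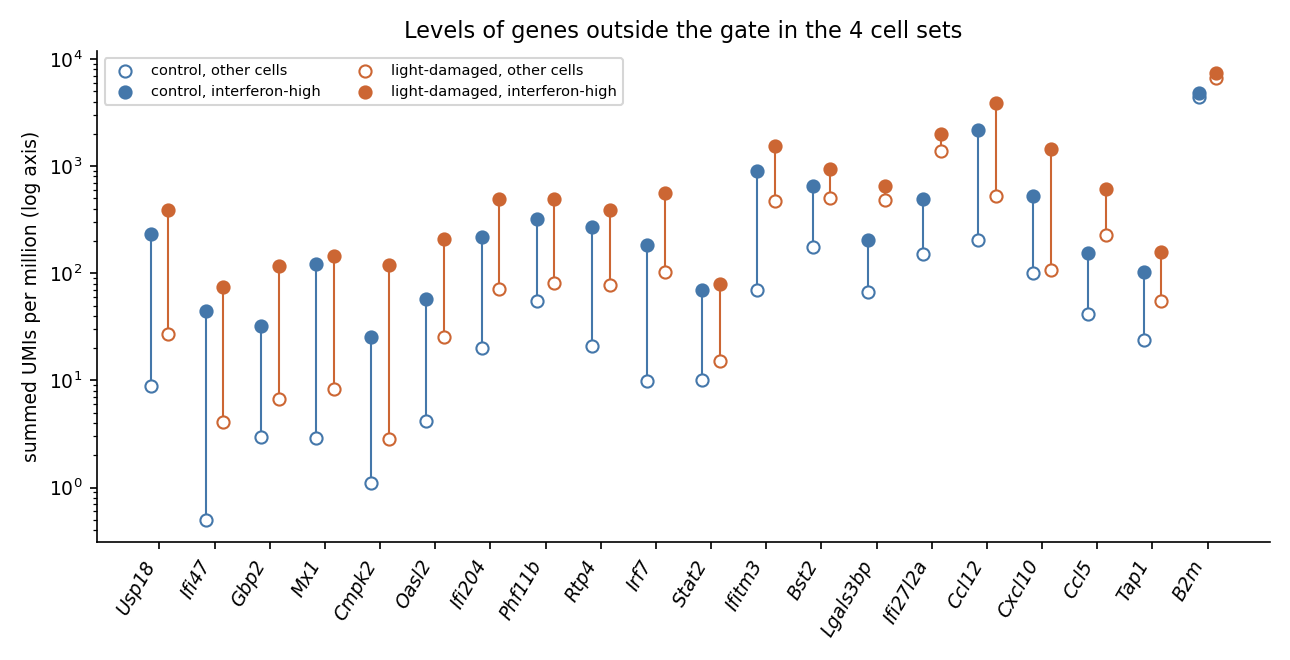
Levels of 20 genes outside the gate in CPM (log axis), for other cells (open) and interferon-high cells (filled) of the control (blue) and light-damaged (orange) libraries, 1 library each and no error bars. The open light-damaged circles of Ifi27l2a (1388) and Lgals3bp (481.0) lie above the filled control circles (492.0 and 204.5), whereas for Usp18 and Mx1 both filled circles lie above both open ones.

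Antiviral effectors gave wide gaps. Ifit3b, a close relative of the gate gene Ifit3, stood at 338.7 CPM in control members against 2.05 CPM in other cells and at 307.1 against 5.41 CPM in the light-damaged library, ratios of 165.3 (106.6 to 258.7) and 56.8 (48.2 to 67.0). Of exact 50-base words in the last 300 bases of its transcript, 3.2% are shared with another gene, E2f1. Words that differ by a base and the rest of its transcript were not searched. How many of its reads come from Ifit3 is therefore unknown. Mx1, a gene of the GTPase family, stood at 121.4 and 2.88 CPM in the control, 42.2-fold (23.5 to 72.5). After light damage Mx1 stood at 146.4 and 8.29 CPM, 17.7-fold (14.8 to 21.1). Only its RNA was measured. Cmpk2, a mitochondrial nucleotide kinase whose gene neighbours the gate gene Rsad2, stood at 25.6 and 1.11 CPM in the control and at 118.6 and 2.86 CPM after light damage, 23.1-fold (5.74 to 68.9, from 4 UMIs) and 41.5-fold (32.6 to 53.0). For these 3 genes the members of each library lay above the other cells of both.

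The oligoadenylate synthetase family, which makes the signal that activates RNase L, had no member past the second filter. Oasl1 was 8.98-fold and 10.8-fold higher, Oasl2 13.8-fold and 8.13-fold, and Oas1a 9.02-fold and 3.55-fold. Slfn5 and Slfn8, of the Schlafen family, were 25.9-fold and 7.80-fold higher in control members and 9.21-fold and 3.81-fold in light-damaged members. Rtp4, a chaperone gene with strong interferon response, stood at 268.4 and 20.9 CPM in the control, 12.8-fold (9.09 to 17.7), and at 387.4 and 77.0 CPM after light damage, 5.03-fold (4.57 to 5.52). Of the 20 effectors passing the second filter, 16 were higher in both libraries, Rtp4 among them. The other 4 were Ifi27l2a, Lgals3bp, Ifitm2 and Ifi27, named here after their values were seen.

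Of 5 sensors of foreign nucleic acid passing the second filter, 1 was higher in both libraries, Mb21d1, the DNA sensor cGAS, at 2.01 (0.861 to 3.99) and 2.15 (1.66 to 2.74) times the other cells, and the list medians were 0.58 and 0.42 on the log2 scale. Of the others, the adaptors Mavs and Tmem173 (STING) were at 0.747 and 0.896 times the other cells after light damage, and the sensor Tlr7 at 1.40. Members held 4.00% of the light-damaged UMIs of Aim2, the remaining gene, against 3.02% of all UMIs. In the control they held 1.28% of the Mavs, 1.02% of the Tmem173, 1.10% of the Tlr7 and 1.31% of the Aim2 UMIs. Each share was above the 0.859% of all control UMIs that members held, so the adaptors were not lower there. The sensors named next were too low in the other cells for that filter. Ifih1, the RNA sensor MDA5, stood at 115.0 and 16.6 CPM in the control and 168.9 and 22.7 CPM after light damage, 6.95-fold (4.06 to 11.2) and 7.44-fold (6.41 to 8.61). Ddx58, the sensor RIG-I, was 4.27-fold and 4.49-fold higher, and Zbp1, which senses Z-form nucleic acid, 21.0-fold and 5.59-fold. Ifi204, of the Ifi200 family of DNA-binding proteins, was 10.9-fold and 6.89-fold higher. Its relatives Mnda and Pyhin1 were 17.4-fold and 16.3-fold higher in the control and 10.8-fold and 11.2-fold after light damage, but 79.3% and 49.4% of their 50-base end words occur in another gene, so those counts are uncertain. Tlr3, an endosomal RNA sensor, was 2.77-fold and 5.46-fold higher.

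Of 5 genes of Isg15 conjugation and removal, 1 passed the second filter, the E2 enzyme gene Ube2l6, which was 3.32-fold and 3.90-fold higher. Usp18, which removes Isg15 from targets and blocks the interferon receptor, stood at 230.0 CPM in control members and 8.92 CPM in the other cells, 25.8-fold (17.5 to 37.2). After light damage it stood at 390.4 and 27.3 CPM, 14.3-fold (12.9 to 15.9). It had a UMI in 14 of 32 control and 111 of 155 light-damaged members, against 3.69% and 15.2% of the other cells; with cells thinned to 2000 UMIs, which left 30 and 155 members, it was seen in 40.0% and 41.9% of members against 1.37% and 4.44%. Herc6, the ligase for Isg15 in mice, was 6.79-fold and 8.95-fold higher. Uba7, the E1 enzyme gene, was at 2.72 (1.16 to 5.41) in the control and 1.48 after light damage, under the 1.5-fold call.

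Of 7 transcription factors of the response passing the second filter, 3 were higher in both libraries, Irf1 (1.82-fold and 2.47-fold) and Irf9 among them. Irf7, which amplifies interferon production, stood at 185.3 and 9.86 CPM in the control, 18.8-fold (12.2 to 28.0), and at 557.1 and 102.9 CPM after light damage, 5.41-fold (5.00 to 5.85). Stat2 was 6.97-fold and 5.21-fold higher, and Irf9 1.81-fold (0.931 to 3.18) and 1.58-fold (1.30 to 1.91). Irf3, the constitutive factor, was at 1.08 in both libraries, and Irf8, a lineage factor of microglia, at 1.08 and 1.20.

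Immunity-related and guanylate-binding GTPases, which attack vacuoles that hold pathogens, had 1 of 14 genes past the second filter, Igtp, which was 4.90-fold and 6.33-fold higher. The others were low in the other cells. Iigp1 stood at 94.6 CPM in light-damaged members and 1.33 CPM in the other cells, 70.9-fold (51.4 to 98.7); the control ratio of 43.3 (7.39 to 180.3) rests on 3 UMIs. Gbp2 was 10.9-fold (3.40 to 27.0, from 5 UMIs) and 17.5-fold (14.3 to 21.3) higher, and Ifi47 89.7-fold (28.4 to 270.8, from 7 UMIs) and 18.1-fold (14.0 to 23.3). Irgm1, with more control UMIs, was 7.46-fold and 6.33-fold higher.

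The upstream arm had medians near those of all genes. None of the 6 interferon receptor and kinase genes passing the second filter was over 1.5-fold apart in either library. Over all genes passing it, 12.2% were higher and 23.1% lower in the control, and 5.64% and 4.75% after light damage. With 6 genes, a count of 0 cannot be told apart from those shares. The median log2 ratios were -0.12 and -0.14, against -0.14 and -0.06 over all genes. Ifnar1 was at 0.900 (0.291 to 2.11) and 0.909 (0.676 to 1.20) times the other cells, Ifnar2 at 0.781 and 0.878, and Jak1 at 1.31 in both. Ifngr1, the ligand-binding chain of the interferon gamma receptor, was at 0.709 (0.519 to 0.947) and 0.716 (0.641 to 0.798).

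Of 11 interferon ligand genes, only Ifnb1 had UMIs in cells passing the cut. It stood at 191.7 CPM in control members and 8.58 CPM in other cells, and at 66.8 and 3.61 CPM after light damage, ratios of 22.3 and 18.5. These sums came from few cells. In the control 2 of 32 members had Ifnb1, and 1 of them held 27 of the 30 UMIs; in the light-damaged library 13 of 155 did, and 1 cell held 38 of the 89 UMIs. Without the UMIs of those single cells the ratios were 2.23 and 10.6. Ifnb1 was also seen in the other cells passing the cut, in 61 of 3635 control and 63 of 5366 light-damaged cells, with 155 and 154 UMIs. Under the cut, 6 of 20 control and 22 of 102 light-damaged cells that passed the gate had it. Those were 30% and 21.6% of such cells, against 6.25% and 8.39% of members. Of the remaining cells under the cut, 5 of 261 control and 21 of 1176 light-damaged cells had it. Most members had no Ifnb1 UMI, and most cells with Ifnb1 were not members. The 13 light-damaged members with Ifnb1 stood above the 142 without it in 4 inflammatory transcripts, chosen after their values were seen: 344.8 against 14.0 CPM of Il6, 4031 against 1177 CPM of Cxcl10, 25293 against 6282 CPM of Ccl4 and 1954 against 471.0 CPM of Ccl5. Usp18 was at 459.7 and 383.4 CPM in these 2 sets and Irf7 at 517.2 and 561.1 CPM, so these 2 ISGs differed less between them. A single light-damaged member held 35 of the 59 Il6 UMIs. The 2 control members with Ifnb1 had more Il6 (1642 against 6.93 CPM) and Cxcl10 (3039 against 311.8 CPM) than the 30 without it. They had less Tnf (328.5 against 699.8 CPM), Usp18 (82.1 against 242.5 CPM) and Irf7 (82.1 against 194.0 CPM). Those 2 cells had a median of 6124.5 UMIs, so their low values rest on few molecules. The median level of the listed ISGs outside the gate went the other way, at 126.7 UMIs per 10000 with Ifnb1 against 80.1 without. After light damage these medians were 204.6 and 158.6.

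The chemokines were the second group of higher genes, with 8 of 11 higher in both libraries and 0 lower in both. Ccl12, a monocyte attractant, stood at 2179 and 204.6 CPM in the control, 10.7-fold (9.51 to 11.9), and at 3854 and 530.8 CPM after light damage, 7.26-fold (7.04 to 7.48). Cxcl10 stood at 524.0 and 100.7 CPM in the control, 5.20-fold (4.12 to 6.49), and at 1438 and 107.0 CPM after light damage, 13.4-fold (12.7 to 14.2). Ccl2 was 3.61-fold and 4.81-fold higher, Ccl4 3.60-fold and 4.14-fold, Ccl3 2.67-fold and 3.64-fold, and Ccl5 3.68-fold and 2.65-fold. Cxcl2, a neutrophil attractant, was 6.75-fold higher in the control and 1.42-fold after light damage. Several control ratios leaned on 1 cell each: without the UMIs of the member with the most, the ratio was 4.41 for Cxcl2, 1.56 for Ccl2, 1.53 for Ccl5 and 0.215 for Ccl7, which had been 1.93. For Ccl5 that cell held 14 of 24 UMIs, and its control log2 ratio of 1.88 was -0.75 with the microglia cut at 30 and -1.33 thinned to 2000 UMIs. Inflammatory cytokine and NF-kB genes were higher in both libraries for 7 of 10, with Tnf 4.94-fold and 3.40-fold, Il1b 4.79-fold and 2.33-fold and Nlrp3 2.94-fold and 2.08-fold higher.

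Much of the control part of this group sat in the members that had Isg15 alone. Those 9 control cells held Ccl4 at 14523, Ccl2 at 1533 and Tnf at 1468 CPM and no Usp18 or Rtp4 UMI, while the 9 control members with 4 to 5 gate genes held 3691, 88.4 and 110.5 CPM of the 3 genes with Usp18 at 618.9 CPM. The 15 light-damaged members with Isg15 alone likewise held Ccl4 at 16794 and Tnf at 1717 CPM, against 6641 and 386.5 CPM in the 105 members with 4 to 5 gate genes. Isg15 was then left out of the gate, with the threshold scaled down in proportion to the genes kept. The control log2 ratio turned to -2.07 for Ccl2, -2.29 for Ccl5, -1.20 for Tnf and -0.31 for Ccl3, while Ccl12 was at 3.50 and Cxcl10 at 0.33. The same change gave after light damage 2.18, 1.59, 0.76, 1.44, 2.996 and 3.94. Higher Ccl2, Ccl3, Ccl5 and Tnf in control members therefore did not hold without Isg15 at the lowered threshold.

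Along the gate level the light-damaged library had enough cells to be cut into 6 bins. From no gate UMI, through above 0 to 5, 5 to 15, 15 to 30 and 30 to 60, to 60 and more UMIs per 10000, Usp18 went from 15.7 to 34.2, 107.4, 197.3, 429.4 and 924.8 CPM. Cxcl10 went from 82.1 to 120.8, 288.3, 573.0, 1238 and 4538 CPM, and Ccl12 from 448.8 to 597.9, 968.3, 2360, 4140 and 8015 CPM. Each of the 3 was higher in every bin than in the bin before, on both sides of the gate. Ifi27l2a had its highest level in the middle, at 2448 CPM from 15 to 30, and 1383 CPM in the last bin. Apoe, a lipid carrier of activated microglia, stood at 14904, 19412, 20747, 18417, 9291 and 2706 CPM, and Cx3cr1 at 922.5 in the first and 457.8 CPM in the last bin. The last bin holds 29 cells and the control bins above the gate only 20, 7 and 5. Apoe in those control bins was at 26134, 1813 and 27814 CPM, against 26046 CPM from 5 to 15, so no steady fall was seen there.

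**Figure D3:**
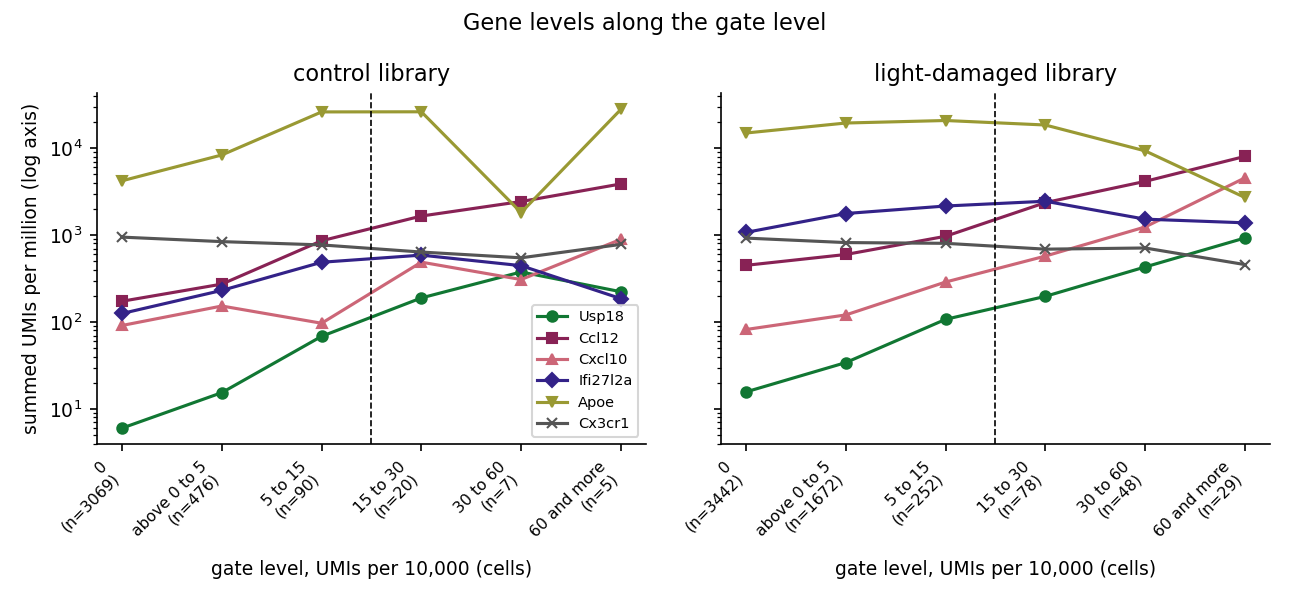
CPM (log axis) of 6 genes in bins of the gate level, with the number of cells under each bin; the dashed line is the gate and each point is a sum over the cells of the bin. In the light-damaged library Usp18 climbs from 15.7 in the first to 924.8 in the last bin. Apoe there goes from 20747 just below the gate to 18417 just above it and 2706 in the last bin. Control Apoe is at 26134, 1813 and 27814 in the bins above the gate, which hold 20, 7 and 5 cells.

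A part of the ISG list was higher in the light-damaged than in the control library outside the members too. In the other cells of that library, Irf7 stood at 102.9 CPM against 9.86 CPM in the other control cells, 10.4-fold, Ifi27l2a at 1388 against 149.9 CPM, 9.26-fold, Lgals3bp at 481.0 against 67.1 CPM, 7.17-fold, and Ifitm3 at 468.1 against 70.1 CPM, 6.68-fold. Over the 34 ISGs passing the second filter, 11 were over 1.5-fold higher and 1 lower in these other cells, against 3.88% higher and 5.38% lower of all genes, and the median log2 ratio was 0.34 against -0.02. These values compare 1 library with another, so library and light damage cannot be told apart.

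Members held 3.02% of the UMIs of light-damaged cells passing the cut, and the share they held of each ISG's UMIs varied widely. Over the 34 ISGs passing the second filter the median share was 7.08%, against 2.90% over all genes passing it. Members held 68.9% of the Iigp1, 63.9% of the Ifit3b, 56.4% of the Cmpk2, 36.1% of the Ifi47, 35.5% of the Mx1 and 30.9% of the Usp18 UMIs. None of these genes passed the second filter. They entered the first by being high in members, so their shares describe the selected cells. Of genes passing the second filter, members held 4.26% of the Ifi27l2a, 4.07% of the Lgals3bp, 5.59% of the Bst2 and 9.27% of the Ifitm3 UMIs. Ifi27l2a had a UMI in 93.5% of light-damaged members and 90.2% of the other light-damaged cells, and its ratio there was 1.43 (1.37 to 1.48). In the control it was 3.28 (2.58 to 4.12), with UMIs in 65.6% and 29.8% of cells. Over the list of 93, members held 7.80% of light-damaged and 3.05% of control ISG UMIs.

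**Figure D4:**
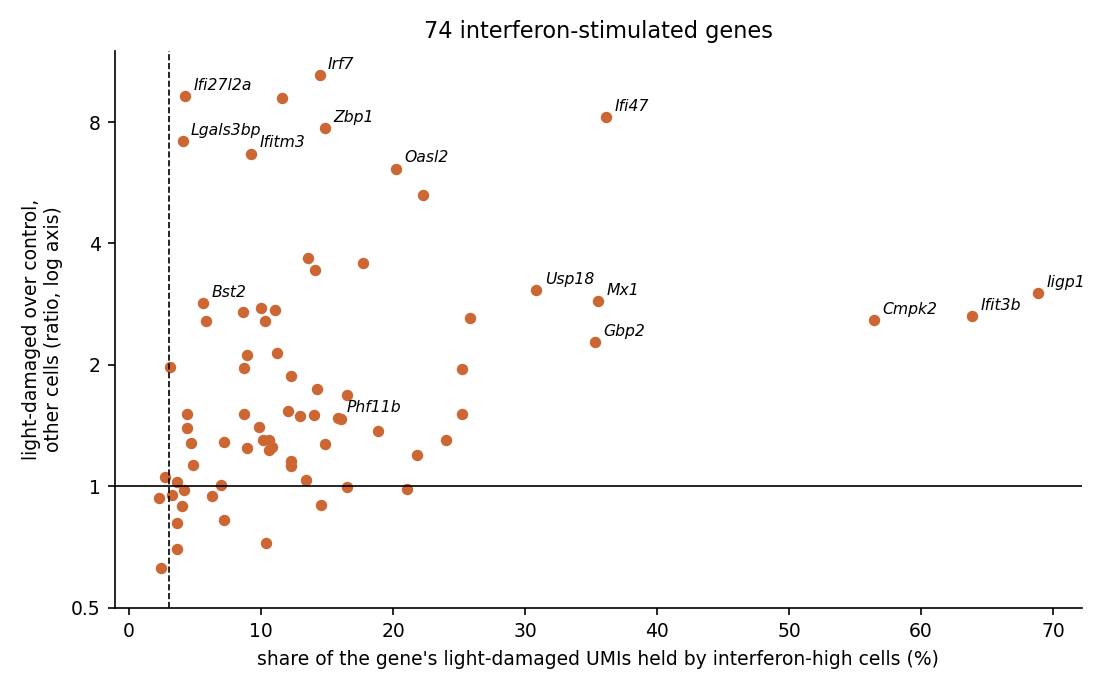
Each point is 1 of the 74 ISGs that passed the first filter. Those low in the other cells passed it only by being high in members. The x axis is the percent of the gene's light-damaged UMIs that lie in interferon-high cells. The y axis is the light-damaged over control ratio in the other cells (log axis). The dashed line is at the members' 3.02% of all UMIs. Ifi27l2a and Lgals3bp sit at the upper left (4.26% and 9.26-fold; 4.07% and 7.17-fold), and Iigp1, Ifit3b and Cmpk2 at the far right with ratios of 3.01, 2.64 and 2.58.

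Members of the 2 libraries were also set against each other. Light-damaged over control, Ifi27l2a was 4.03-fold (3.21 to 5.12) and Irf7 3.01-fold (2.07 to 4.52) higher in members, and Usp18 1.70-fold (1.21 to 2.45). Mx1 was at 1.21 (0.752 to 2.05) and Phf11b at 1.54 (1.15 to 2.09). In members 22.3% of all genes passing the first filter were over 1.5-fold higher and 18.7% lower in the light-damaged library, with 32 cells on the control side.

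Antigen presentation by MHC class I was higher in part. Of 14 class I and peptide-loading genes passing the filter, 7 were higher in both libraries. Tap1, the peptide transporter, stood at 102.2 and 23.6 CPM in the control, 4.32-fold (2.45 to 7.10), and at 159.2 and 54.5 CPM after light damage, 2.92-fold (2.52 to 3.36). The non-classical genes H2-Q7, H2-Q4, H2-Q6, H2-T22 and H2-T23 were 1.84-fold to 3.85-fold higher in the control and 1.54-fold to 1.99-fold after light damage, and as members of a multigene family their counts may be split between relatives. The abundant B2m, the common light chain, was at 1.10 in both libraries. H2-K1 and H2-D1, the classical heavy chains, were at 1.31 and 1.35 in the control and 1.23 and 1.08 after light damage. Of 6 immunoproteasome genes, which cut peptides for class I, 1 was higher in both, Psme2 at 1.62 and 1.65; Psmb9 and Psmb10 were 1.80-fold and 1.78-fold higher after light damage and at 1.25 and 0.775 in the control.

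MHC class II, which presents to helper T cells, differed between the libraries. None of 6 genes was higher in both. In light-damaged members H2-Aa stood at 395.6 CPM against 88.9 CPM in the other cells, 4.45-fold (4.05 to 4.87), and Cd74 at 1170 against 316.5 CPM, 3.70-fold (3.51 to 3.90). In the control H2-Aa stood at 76.7 and 160.6 CPM, 0.477-fold (0.246 to 0.835), and Cd74 at 690.1 and 716.2 CPM. The light-damaged excess sat in few cells: 20 of 155 members had H2-Aa, against 9.73% of the other cells, and 1 member held 30.7% of its UMIs. With the gate at 30 the light-damaged log2 ratio of Cd74 turned from 1.89 to -1.12, and without cells rich in cell cycle or monocyte marker genes the summed class II log2 ratio turned from 1.34 to -0.091.

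**Figure D5:**
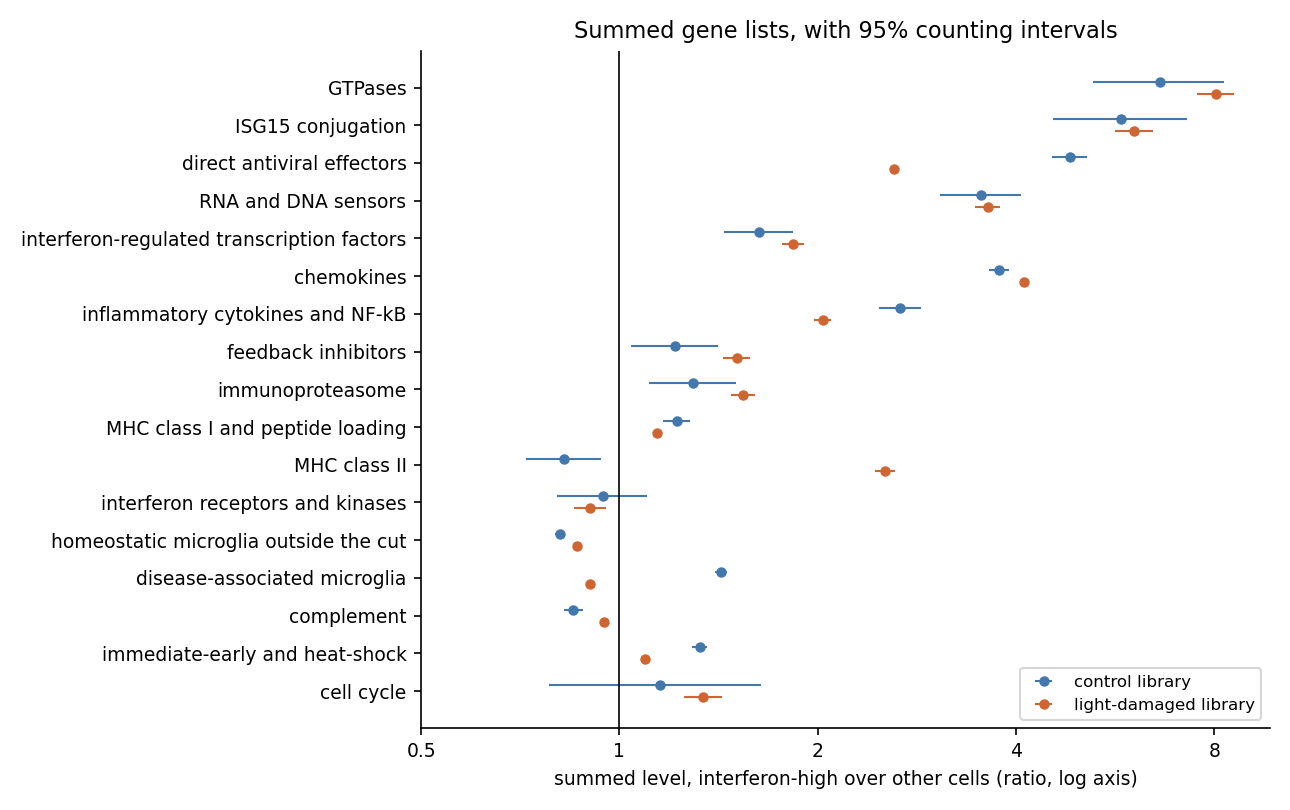
Ratio of the summed level of each gene list in interferon-high over other cells (log axis), with exact 95% counting intervals, for the control (blue) and light-damaged (orange) libraries. The 5 ISG lists and the chemokines lie above 1 in both libraries, receptors and kinases at 0.944 and 0.902, homeostatic genes at 0.814 and 0.863, and MHC class II on opposite sides of 1.

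Homeostatic microglial genes lay slightly below the other cells. Of 22 such genes outside the cut, 0 were lower and 1 higher in both libraries by 1.5-fold, and the medians were -0.30 and -0.28 on the log2 scale, against -0.14 and -0.06 over all genes. Summed, they were at 0.814 (0.7997 to 0.828) and 0.863 (0.856 to 0.870) times the other cells. Cx3cr1 stood at 645.4 and 926.5 CPM in the control, 0.697-fold (0.567 to 0.847), and at 656.9 and 878.0 CPM after light damage, 0.748-fold (0.699 to 0.8001). Csf1r was at 0.861 and 0.830, and Sall1, a factor of microglial identity, at 0.369 (0.135 to 0.804) and 0.686 (0.558 to 0.836). The exception was Gpr84, a fatty acid receptor raised in inflamed microglia, at 2.03 and 2.42.

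Of 13 genes of disease-associated microglia passing the second filter, 1 was higher in both libraries, Lilrb4a, an inhibitory receptor (3.29 and 1.74). Over all genes passing it 3.97% were, and with 13 genes the count cannot be told apart from that share. The 23 listed genes of this state summed to 1.42 (1.40 to 1.45) times the other cells in the control. After light damage they summed to 0.902 (0.896 to 0.909) times. Trem2, the lipid receptor of that state, was at 0.815 and 0.838 and its partner Tyrobp at 0.891 and 0.880. Apoe lay on opposite sides of 1, at 21879 against 5342 CPM in the control (4.10-fold, 3.96 to 4.24) and 12959 against 16884 CPM after light damage (0.767-fold, 0.756 to 0.779). Within control members Apoe stood at 817.9 CPM in the 9 cells with 4 to 5 gate genes, at 37098 CPM in the 12 with 2 to 3 and at 24200 CPM in the 11 with 1. With the microglia cut at 30 its control log2 ratio turned from 2.03 to -1.03. Spp1 and Cst7, late genes of the state, had 3 and 1 UMIs in control members and ratios of 1.22 and 1.01 in light-damaged ones. Complement genes C1qa, C1qb and C1qc ran from 0.781 to 0.879 in the control and from 0.901 to 1.01 after light damage.

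Markers of other cells moved with the members of either library and are given beside these results; their part in them was not tested. The 8 perivascular macrophage markers summed to 293.9 CPM in control members and 80.8 CPM in the other cells (3.64-fold, 2.65 to 4.88), with 4 of the 8 genes, Cd163 and Lyve1 among them, at 0, and to 48.0 and 50.7 CPM after light damage. Mrc1 had 14 UMIs in 6 of 32 control members and 4 UMIs in 3 of 155 light-damaged members. The 10 monocyte markers summed to 268.4 and 51.9 CPM in the control (5.17-fold, 3.70 to 7.05), where 30 of 42 UMIs were Ms4a7 in 3 cells, and to 207.2 and 159.3 CPM after light damage. Rod photoreceptor markers summed to 396.2 and 568.9 CPM in the control and to 220.0 and 106.5 CPM after light damage (2.07-fold, 1.83 to 2.33). The 4 bipolar cell markers summed to 34 UMIs in light-damaged members (4.19-fold, 2.84 to 6.01), where 1 member held all 11 Trpm1 UMIs, and to 2 UMIs in control members. The 4 endothelial markers summed to 9 UMIs after light damage (2.70-fold, 1.20 to 5.31) and to 3 in the control (3.50-fold, 0.709 to 10.5). The 6 dendritic cell markers summed to 3 UMIs in control members (14.4-fold, 2.78 to 47.5), all of them Ccr7, and to 6 after light damage (1.70-fold, 0.612 to 3.82).

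The remaining genes with the highest lower-of-both ratio were Gm4955, Gm4951, Gm13822 and Il6. Gm4955 was 64.1-fold (16.9 to 213.0, from 5 UMIs) and 15.9-fold (12.1 to 20.9) higher and Gm4951 25.6-fold (10.3 to 56.1) and 12.98-fold (9.97 to 16.8). Gm13822 was 42.5-fold and 11.8-fold higher. Il6, a cytokine of acute inflammation, was 16.6-fold and 10.4-fold higher, but 1 cell held 20 of its 21 control UMIs and another 59.3% of its 59 light-damaged UMIs. Without the UMIs of those cells its ratios were 0.790 and 4.23.

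The 10 genes furthest below the other cells in both libraries were Il16, Tpbgl, H2-DMb2, Msrb2, H2-Ob, Chst12, Gcn1l1, Sephs2, Sesn1 and Akr7a5. Each had 1 to 4 UMIs in control members, so the control side is weak. In the light-damaged library their ratios ran from 0.400 (Il16, 0.244 to 0.620) to 0.551 (Akr7a5, 0.373 to 0.785). Il16 encodes an attractant for CD4 cells, and H2-DMb2 and H2-Ob encode chains that load or restrain MHC class II.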

How the data were processed

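The authors deposited, per library, whole-number UMI counts per gene and barcode; Cell Ranger 2.0.0 and build mm10 are given per the submitters' processing notes; no label names further steps. Members were found by the stated cuts. Counts were summed over cells and divided by totals without gate and cut genes (CPM). Ratios carry exact conditional Poisson intervals and shares exact Clopper-Pearson intervals at 95%, both for counting error only; no test was possible with 1 library per group. The ratio script was tested on simulated data. Thinning drew UMIs without replacement with a fixed seed. Named genes were list members, the 15 higher and 10 lower in both libraries with the most extreme weaker ratio, and 4 with opposite directions. Of 393 listed genes, 387 were in the files. Members, lists and rules were chosen with earlier results of these data known. Gene positions and sequence words came from GENCODE M21. Tools were Python 3.11.15, numpy 2.4.6, pandas 2.3.3, scipy 1.17.1 and scanpy 1.11.5 (Scrublet). The alternatives concerned gate, cut, cell filters, doublets, depth, scaling and minimum level.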

Additional observations from a re-analysis of the deposited data

Results flagged for a closer look

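Some values went opposite ways in the libraries; in each case 1 library stands on each side and the difference was not tested. Cxcl13, a B cell attractant, was 4.50-fold higher in light-damaged members and had 0 UMIs in control members, where other cells had 11. Il1rn, the interleukin 1 receptor antagonist, was at 6.39 after light damage and 0.334 in the control, from 1 UMI; the control value lay above 1 under 7 alternatives, so the opposite direction did not hold there. Bmp2 was at 0.360 and 7.48, from 1 light-damaged and 12 control UMIs. Gm26870 was at 0.163 and 142.7, and all 47 of its control UMIs lay in 1 cell. H2-Aa was at 4.45 and 0.477, and Mrc1 at 0.505 and 5.83. The rod genes Gnat1, Gngt1 and Pdc were at 2.24, 1.83 and 3.14 after light damage and at 0.597, 0.485 and 0.287 in the control. Summed lists on opposite sides of 1, with counting intervals that exclude 1, were MHC class II (2.53 after light damage, 0.824 in the control), rod markers (2.07 and 0.696) and disease-associated microglia (0.902 and 1.42). These intervals treat the UMIs of 1 cell as independent, while 1 light-damaged member held 30.0% of the members' Cd74 UMIs. Over all 4941 genes, 46 were over 1.5-fold apart in opposite directions.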

How the results depend on the processing

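No paired analysis was possible because each group is 1 library. With 1 library per group no spread between replicates could be set beside any value, and 32 control members limit every control ratio. The share of interferon-high cells (0.873% control, 2.81% light-damaged) was 1.55% and 4.08% with the gate at 10, 0.327% and 1.39% with it at 30, 1.46% and 3.61% thinned to 2000 UMIs, 1.24% in the control thinned to 3000, and 1.25% and 3.37% without Ifit1 in the gate. In the light-damaged library it was 3.30% without Ifit2, 2.05% without Isg15 and 1.66% with the microglia cut at 30. Each gate with 1 gene left out had its threshold scaled down in proportion to the genes kept. Genes higher in both libraries (305) were 181 at a minimum of 50 CPM and 495 at 5 CPM; without Isg15 in the gate 220 were called, sharing 161 with the 305, the lowest overlap among the alternatives. Genes lower in both (69) were 32 and 163 with the gate at 10 and 30, 140 and 142 thinned to 2000 and 3000 UMIs, 16 and 298 at a minimum of 50 and 5 CPM, and 24 with a pseudocount of 10 CPM; 13 of the 69 were shared after thinning to 2000. The light-damaged ISG median log2 ratio (2.002) was 2.37 with the gate at 30, 2.27 with the microglia cut at 30 and 1.70 with the pseudocount. The light-damaged over control median in the other cells (0.59) was 0.91 at a minimum of 50 CPM.

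Values that changed sign, as log2 ratios: Sesn1 in the control was 0.0716 with the gate at 10, 0.0857 and 0.27 thinned to 2000 and 3000, and 0.31 without Isg15. Il1rn in the control was 1.87 with the gate at 10, 1.47 and 2.26 thinned, and 2.14, 2.28, 2.53 and 2.33 without Ifit1, Ifit2, Ifit3 and Rsad2. H2-DMb2 in the control was 0.12 thinned to 3000, and Bmp2 after light damage 0.0288 without Rsad2. Ccl5 in the control was -0.75 with the cut at 30, -1.33 thinned to 2000 and -2.29 without Isg15; without Isg15, Ccl2 was -2.07, Tnf -1.20, Ccl3 -0.31 and the summed cytokine and NF-kB list -0.10. Apoe in the control was -1.03 with the cut at 30. After light damage Cd74 was -1.12 with the gate at 30, summed MHC class II -0.95 there, -0.27 with the cut at 30 and -0.0914 without cell cycle or monocyte marker cells, and summed rod markers -0.42 thinned to 2000. Of 2851 values of genes and lists under 20 alternatives, 2190 moved within their counting interval, 635 moved beyond it and 26 changed sign; the cause was not tested.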
